A study of Mus musculus with 2 samples.

Results

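The genes described here are the structural and assembly genes of the mitochondrial respiratory chain and ATP synthase. They were chosen by symbol alone. The nuclear set holds the genes whose symbols start with Nduf, Uqcr, Atp5 or Cox4 to Cox8, together with Sdha, Sdhb, Sdhc and Sdhd. The mitochondrial set holds those that start with mt-Nd, mt-Co, mt-Cyt or mt-Atp. Together they made up 107 of the 32285 genes in the deposited tables, 94 of them nuclear and 13 mitochondrial. By complex the nuclear set held 37 genes of complex I, 4 of complex II, 8 of complex III, 20 of complex IV and 17 of complex V, and 8 complex I assembly factors (Ndufaf genes). The mitochondrial set held 7 genes of complex I, 1 of complex III, 3 of complex IV and 2 of complex V. Annotation on GRCm38 listed 106 of the 107 as protein coding. The exception was Ndufb1-ps, listed as a non-coding transcript from a bidirectional promoter.

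Tumours of Hepa1-6, a mouse hepatoma cell line, had been profiled by droplet single-cell RNA sequencing. The first library came from mice given CD147-LYTACs at 40 mg/kg, 4 times at intervals of 3 days, and the second from control mice, for which the labels name no injected agent. Tumours were collected on day 12, and cells without and with surface CD45 were sorted apart and pooled at 1 to 3 parts, in both groups alike. LYTACs are chimaeric molecules that carry a bound surface protein to the lysosome for degradation, and CD147 is a surface partner of lactate transporters. The labels state neither mouse strain, age or sex nor how many tumours entered a library, and leave the injection route open between intraperitoneal and intravenous. Each group was 1 library, so no difference below has a replicate check or a test. All intervals given are 95% intervals for counting error only.

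The respiratory chain passes electrons from NADH (complex I) and succinate (complex II) through complex III to complex IV, which reduces oxygen. The proton gradient built on the way drives ATP synthase, complex V. Most subunits are encoded in the nucleus and imported, while a few core subunits of complexes I, III, IV and V are encoded in mitochondrial DNA and transcribed there as long precursors. Both genomes are therefore needed for 1 working chain, but their transcripts are made, cut and degraded by separate machinery. Nuclear respiratory factor 1 (NRF1), a transcription factor, is known for binding GC-rich sites in promoters of nuclear respiratory chain genes.

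Promoter sequences from RefSeq (GRCm38.p6) were matched by symbol for 75 of the 94 nuclear members, and the 250 bases before each start were searched on both strands. The NRF1 core, whose letters stand in capitals in the stretches below, was present in 14 of the 75 (18.7%), against 9.03% of 10265 genes with at least 100 UMIs in hepatoma cells and 4.23% of all 27025 genes with a promoter sequence. A UMI is a molecular tag that counts 1 captured transcript. Members of this set are mostly well expressed, so the expressed genes are the closer reference. 8 motifs were searched, some of them contained in others, and this was the one with the widest gap in percentage points to the expressed genes. Its subset with T at the open position was in 6.67% of members and 1.81% of expressed genes. The ETS core CCGGAAG was in 18.7% of members and 15.8% of expressed genes, and its longer form ACCGGAAG in 5.33% and 3.98%. TGACGTCA was in 5.33% and 2.90%, CCAAT in 45.3% and 40.6%, and the YY1 core ATGGCGGC in 1.33% and 2.30%. A longer YY1 motif that contains this core was in none of the 75 and in 0.585% of expressed genes. A match is a stretch of letters, not a measured binding site. The stretches below show the NRF1 core, on either strand, in capitals within 40 bases on each side, ending at the start site where that came first. They are shown for members described further on: Atp5c1 and Atp5g2 (ATP synthase), Ndufa8 and Ndufs5 (accessory subunits of complex I) and Sdha (the flavoprotein of complex II). The first motif base lay 17 bases before the start in Atp5c1, 30 in Ndufa8, 42 in Atp5g2 and 98 in Ndufs5 and Sdha. All 5 lie on the minus strand: Atp5c1 at chr2:10080433-10080489, Atp5g2 at chr15:102671048-102671129, Ndufa8 at chr2:36049339-36049408, Ndufs5 at chr4:123718235-123718324 and Sdha at chr13:74350289-74350378. These starts are those of RefSeq. In the annotation used for gene positions, Atp5c1 reaches to 10080510, Atp5g2 to 102672352 and Ndufa8 to 36049406. The capitals in the stretches of Atp5c1, Atp5g2 and Ndufa8 thus lie inside the annotated genes, and those of Ndufs5 and Sdha outside.
Atp5c1: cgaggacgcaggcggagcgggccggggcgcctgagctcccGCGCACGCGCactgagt
Atp5g2: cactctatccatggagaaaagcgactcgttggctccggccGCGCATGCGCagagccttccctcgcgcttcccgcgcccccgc
Ndufa8: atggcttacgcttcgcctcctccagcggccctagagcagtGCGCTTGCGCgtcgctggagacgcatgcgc
Ndufs5: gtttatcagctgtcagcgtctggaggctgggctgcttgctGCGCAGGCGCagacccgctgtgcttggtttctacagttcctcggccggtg
Sdha: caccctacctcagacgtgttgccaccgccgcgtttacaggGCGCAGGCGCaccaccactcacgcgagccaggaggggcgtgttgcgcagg

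The CD147-LYTACs library held 9219 barcodes and 149812326 UMIs, and the control library 8150 barcodes and 143495332 UMIs. They shared 24 cell barcodes. Cells were assigned to 13 types from marker genes on raw UMIs, which left 6389 gated cells in the CD147-LYTACs library and 5861 in the control library. A further 924 and 694 cells reached no gate, and 328 and 134 passed more than 1. Between the libraries 5 types could be compared, each with at least 100 cells in both. They were hepatoma cells (1918 and 1725), CD8 T cells (2034 and 2660), CD4 T cells (228 and 349), other T cells (506 and 651) and neutrophils (1131 and 139). Other T cells had UMIs of both or of neither of the CD8 and CD4 receptors. A receptor without a UMI may still be expressed. All 11 hepatoma markers were seen in CD147-LYTACs hepatoma cells, and 9 in control hepatoma cells, where Dlk1 and H19 were at 0. Median depth was 45650 and 48390 UMIs per hepatoma cell, 6531 and 6468 per CD8 T cell, and 2791 and 2792 per neutrophil. CD4 T cells had medians of 7413 and 6625 UMIs, and other T cells were shallower at 4320 and 4714.

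Hepatoma cells had the highest and neutrophils the lowest share of nuclear respiratory chain transcripts in both libraries. The nuclear set took 1.92% of all UMIs of hepatoma cells in the CD147-LYTACs library and 1.82% in the control library. In neutrophils it took 0.315% and 0.412%. CD8 T cells were at 1.48% and 1.34%, CD4 T cells at 1.42% and 1.26%, and other T cells at 1.247% and 1.10%. Macrophages, with 285 and 95 cells, were at 1.47% and 1.34%. NK cells (1.05% and 0.948%) and B cells (0.962% and 0.930%) were neighbours in the order, and their intervals overlapped in both libraries.

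The order of the mitochondrial set was less alike in the libraries. It took 3.84% of UMIs of hepatoma cells in the CD147-LYTACs library and 3.90% in the control library, which placed them highest in the first library. In the control library macrophages stood above them at 4.08%, while CD147-LYTACs macrophages were at 2.88%. Mast cells or basophils, with 32 and 20 cells, were at 2.12% and 3.69%. Neutrophils were again lowest, at 0.964% and 1.24%. Cells above 15% mitochondrial UMIs had been removed, and this cap acts directly on the mitochondrial set. It removed 2.40% of CD147-LYTACs and 7.77% of control macrophages, and 1.65% of CD147-LYTACs and 6.71% of control neutrophils.

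**Figure D1:**
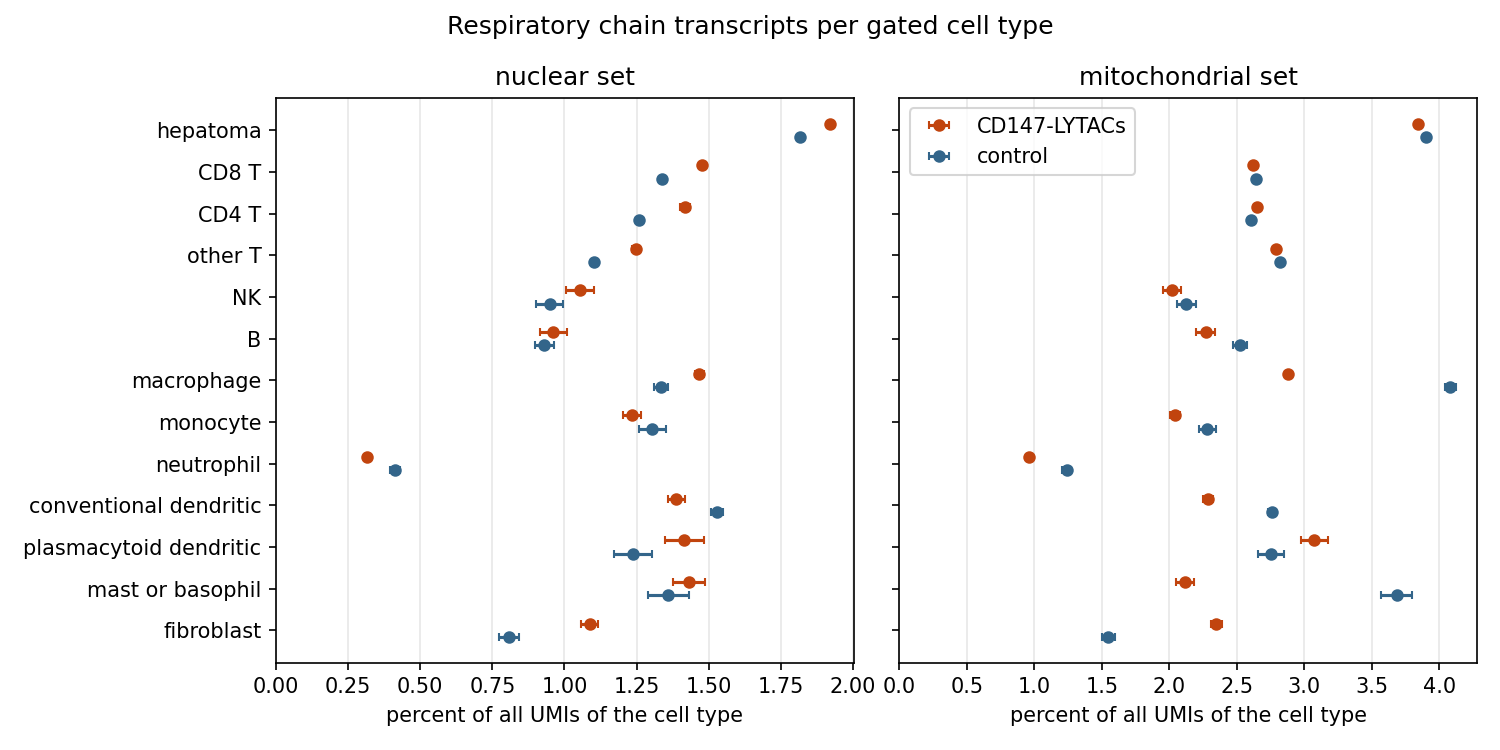
Share of all UMIs (percent, x axis) taken by the nuclear set (left) and the mitochondrial set (right) in each of 13 gated cell types (y axis). Points are sums over the cells of 1 library, CD147-LYTACs above control, and bars are exact binomial 95% intervals for counting error. The nuclear set runs between 0.315% in CD147-LYTACs neutrophils and 1.92% in CD147-LYTACs hepatoma cells.

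Between the libraries, the nuclear set was higher in CD147-LYTACs hepatoma and T cells, whereas the mitochondrial set stayed close to the control level there. The log2 ratio of CD147-LYTACs over control for the nuclear set was 0.082 (0.079 to 0.085) in hepatoma cells, 0.143 (0.135 to 0.150) in CD8 T cells, 0.171 (0.149 to 0.194) in CD4 T cells and 0.178 (0.158 to 0.198) in other T cells. All 4 are ratios of less than 25% more. In neutrophils the nuclear set was lower, at -0.386 (-0.456 to -0.316). The median over all genes tested was between -0.087 and -0.027 in the 5 types.

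For the mitochondrial set the log2 ratios were -0.022 (-0.024 to -0.020) in hepatoma cells, -0.010 (-0.016 to -0.004) in CD8 T cells, 0.021 (0.005 to 0.037) in CD4 T cells and -0.015 (-0.028 to -0.002) in other T cells. The direction of each of these 4 values turned under at least 1 other processing choice, so no direction is read from them. In neutrophils the mitochondrial set was lower at -0.363 (-0.403 to -0.322), and it was lower still with a cap of 25% (-1.026) or with none (-1.145). The nuclear set kept its direction in all 5 types under all 10 alternatives that bear on it.

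**Figure D2:**
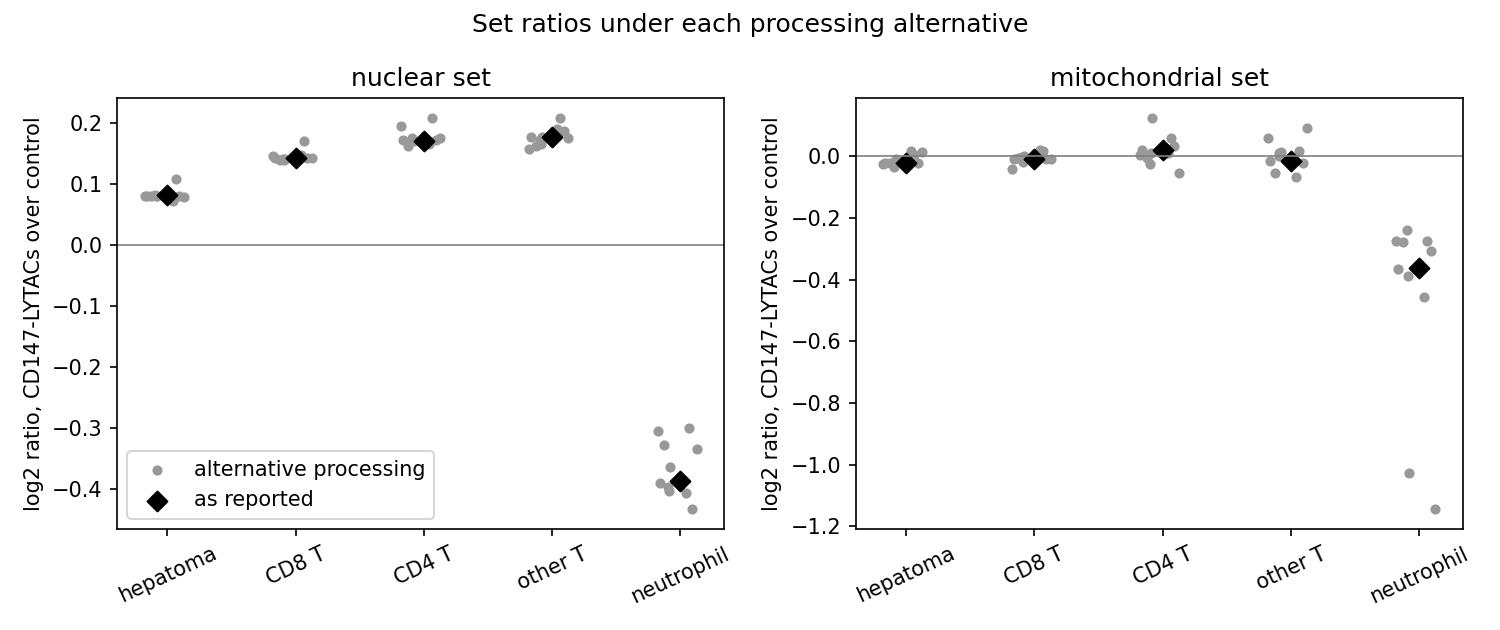
Log2 ratio of CD147-LYTACs over control (y axis) of the nuclear set (left) and the mitochondrial set (right) in 5 cell types (x axis). Black diamonds are the values given in the text and grey points the same ratio under each alternative processing. All points of the nuclear set lie on 1 side of 0 within a cell type, and those of the mitochondrial set cross 0 in hepatoma cells and in the 3 T cell classes.

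Set side by side, hepatoma cells held 0.500 nuclear UMIs per mitochondrial UMI in the CD147-LYTACs library and 0.465 in the control library. CD8 T cells held 0.564 and 0.507, CD4 T cells 0.536 and 0.483, and other T cells 0.447 and 0.391. In neutrophils, with the mitochondrial cap in place, the values were 0.327 and 0.333, with overlapping intervals. Macrophages held 0.510 and 0.327. Fibroblasts, with 34 and 16 cells, went the other way, at 0.463 and 0.522 with intervals that did not overlap. The remaining gated types were higher in the CD147-LYTACs library, with overlapping intervals in monocytes and plasmacytoid dendritic cells. All of these values were taken with the mitochondrial cap in place, and their dependence on it was not tested. Without a cap the mitochondrial log2 ratio in neutrophils was -1.145. The nuclear ratio there stayed between -0.433 and -0.299 under all alternatives. The near equality in neutrophils is therefore read only for the cap used.

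Other measures differed along with the nuclear set. The 80 genes of cytosolic ribosomal proteins took 18.4% of UMIs in CD147-LYTACs and 16.3% in control CD8 T cells, a log2 ratio of 0.177. Their ratio was 0.240 in CD4 T cells, 0.199 in other T cells, -0.210 in neutrophils and 0.029 in hepatoma cells. The ribosomal ratio was thus above that of the nuclear set in each T cell class and below it in hepatoma cells. The nuclear share was also higher in deeper hepatoma and T cells, and within each of 3 bins of cells by depth the nuclear ratio kept its direction, between 0.049 and 0.114 in hepatoma cells, between 0.082 and 0.141 in CD8 T cells and between -0.452 and -0.337 in neutrophils. The 11 hepatoma markers summed to 56.5 CPM in CD147-LYTACs and 49.1 CPM in control CD8 T cells, against 5083 and 4647 CPM in hepatoma cells. CPM are UMIs of a gene per 1000000 UMIs of its cell type. The 7 T cell markers summed to 4182 and 3465 CPM in CD8 T cells. The part of these measures in the nuclear ratio was not tested.

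In hepatoma cells 89 of the 94 nuclear members had at least 100 UMIs over both libraries. The other 5 were Cox7b2, Cox6b2, Cox8b, Ndufa4l2 and Cox8c, with at most 14 UMIs in a library. No member was at least 25% higher or 20% lower, the same ratio in both directions, with an interval excluding no difference. Of all genes compared, 2.72% were higher and 5.65% lower by that rule, and 1.2% were 1.5-fold higher and 2.2% lower. Without a minimum fold, 65 of the 89 were higher, with a background of 20.4%, and 7 were lower, with a background of 28.4%. At this depth a very small ratio has an interval that excludes 0. The members' median log2 ratio was 0.078 and the median of all genes -0.027.

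Genes of complexes I and II were among those with the highest ratios in hepatoma cells. The complex II iron-sulfur subunit Sdhb had 59.3 CPM in CD147-LYTACs and 51.0 CPM in control hepatoma cells, a log2 ratio of 0.22 (0.16 to 0.27). Ndufs3, a core subunit of the peripheral arm of complex I, had 87.0 and 75.8 CPM, a ratio of 0.199 (0.153 to 0.245). Sdha, the flavoprotein that partners Sdhb, did not share its ratio, with 84.6 and 86.5 CPM and an interval of -0.076 to 0.014. The membrane anchors Sdhc (59.0 and 56.1 CPM) and Sdhd (52.9 and 48.2 CPM) had ratios of 0.072 and 0.135. Lowest in this list was Cox7a1, the heart and muscle isoform of a complex IV subunit, with 3.34 and 4.07 CPM and a ratio of -0.29 (-0.51 to -0.07).

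Some abundant subunits of complexes IV and V were slightly higher. Cox4i1, the common isoform of a regulatory complex IV subunit, had 1514 CPM in CD147-LYTACs and 1430 CPM in control hepatoma cells, a log2 ratio of 0.083. Atp5b, the catalytic beta subunit of ATP synthase, had 762 and 718 CPM, a ratio of 0.087. Cox6c, a small subunit of complex IV, stayed near the control level with 626 and 623 CPM and an interval of -0.009 to 0.024. By complex, the nuclear ratio in hepatoma cells was 0.083 for complex I, 0.081 for complex II, 0.043 for complex III, 0.081 for complex IV, 0.097 for complex V and 0.004 for the assembly factors. Complex III and the assembly factors were thus nearest to the control level.

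The 13 mitochondrial genes did not move as a block in hepatoma cells, with 4 intervals above 0 and 7 below. mt-Cytb, the only mitochondrial subunit of complex III, had 3200 CPM in CD147-LYTACs and 2958 CPM in control hepatoma cells, a log2 ratio of 0.113. mt-Co1, the catalytic subunit of complex IV, had 6009 and 6481 CPM, a ratio of -0.109. mt-Co2 (6134 and 6019 CPM) and mt-Co3 (8591 and 8832 CPM) of the same complex were at 0.027 and -0.040. The complex I genes mt-Nd1 (2910 and 2911 CPM), mt-Nd2 (2537 and 2671), mt-Nd4 (1859 and 1846) and mt-Nd5 (472 and 474) lay between -0.075 and 0.011. Less abundant genes lay farther out: mt-Nd3 with 222 and 249 CPM at -0.167 and mt-Nd6, encoded on the strand opposite to the others, with 18.6 and 20.9 CPM at -0.165. The ATP synthase gene mt-Atp6 had 6147 and 6243 CPM and a ratio of -0.022. mt-Atp8 (77.4 and 92.4 CPM, ratio -0.255) and mt-Nd4l (259 and 235 CPM, ratio 0.138) each overlap a neighbour on the mitochondrial genome, mt-Atp6 and mt-Nd4, so reads may have been divided between them and both values are uncertain.

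In CD8 T cells 25 of 37 nuclear members of complex I, 11 of 12 of complex IV and 13 of 17 of complex V had intervals above 0. The same held for 4 of 8 members of complex III, 1 of 4 of complex II and 1 of 8 assembly factors (background 18.0%). Of 86 nuclear members with at least 100 UMIs, 7 were at least 25% higher (background 7.73%) and none 20% lower (background 5.19%). Those 7 were Atp5d, Atp5g1, Atp5g2, Ndufa8, Ndufb10, Ndufb5 and Ndufs8, so the share past that ratio was near the background. None passed 1.5-fold, as 3.05% of all genes did upwards and 1.03% downwards. By interval alone 55 were higher (background 18.0%) and 2 lower (background 23.8%), with a median log2 ratio of 0.124 against -0.027 over all genes. Ndufb5 and Ndufb10, accessory subunits of the membrane arm of complex I, had 147 and 132 CPM in CD147-LYTACs and 113 and 101 CPM in control CD8 T cells, both with a ratio of 0.38. Atp5g1, which encodes the c subunit of the ATP synthase rotor, had 192 and 148 CPM, a ratio of 0.37.

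By complex, CD8 T cells had a nuclear log2 ratio of 0.172 for complex IV, 0.169 for complex V and 0.142 for complex I, but 0.027 for complex III, 0.005 for complex II and -0.035 for the assembly factors. Sdha was lower, at 77.8 CPM in CD147-LYTACs and 85.5 CPM in control CD8 T cells, a ratio of -0.137 (-0.240 to -0.033). Sdhd was at 48.8 and 42.8 CPM (0.190), and the intervals of Sdhb (84.7 and 82.1 CPM) and Sdhc (34.9 and 35.0 CPM) included 0. The lowest nuclear value was that of the assembly factor Ndufaf6, with 7.38 and 8.83 CPM and an interval of -0.60 to 0.08.

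Of the mitochondrial genes in CD8 T cells, mt-Atp8 alone was at least 20% lower, at 60.7 CPM in CD147-LYTACs against 83.1 CPM in control cells (log2 ratio -0.45; background of genes lower 5.19%). mt-Nd6 had 29.7 and 36.2 CPM, a ratio of -0.29 (-0.45 to -0.12). mt-Co3 (5121 and 4909 CPM, 0.061) and mt-Cytb (1956 and 1900 CPM, 0.042) were slightly higher, and mt-Nd2 (1179 and 1275 CPM, -0.112) and mt-Co1 (5308 and 5576 CPM, -0.071) slightly lower. The other 7 lay between -0.115 and 0.062.

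CD4 T cells and other T cells had fewer UMIs, so their intervals were wider. In CD4 T cells 9 of 80 nuclear members were at least 25% higher (background 6.51%) and none 20% lower (background 8.37%). By interval alone 26 were higher (background 10.5%) and 2.13% and 2.12% of all genes, but no member, were 1.5-fold higher and lower. Ndufb10 was highest, with 130 CPM in CD147-LYTACs and 90.0 CPM in control CD4 T cells, a log2 ratio of 0.53 (0.27 to 0.78). Ndufs8, an iron-sulfur subunit of complex I, had 43.8 and 32.2 CPM, with an interval that came near 0 (0.002 to 0.884). Atp5f1, of the ATP synthase stalk, had 275 and 207 CPM, a ratio of 0.41. The 3 lowest, Ndufa5 (44.8 and 53.4 CPM), Ndufc1 (56.3 and 66.4 CPM) and Sdha (64.6 and 75.6 CPM), had intervals that included 0.

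In other T cells 12 of 83 nuclear members were at least 25% higher (background 6.27%) and none 20% lower (background 7.46%). By interval alone 28 were higher (background 10.9%), and none was 1.5-fold higher (background 2.04%). Ndufa12, an accessory subunit of complex I, had 59.8 CPM in CD147-LYTACs and 41.8 CPM in control cells, a log2 ratio of 0.52 (0.20 to 0.84). Ndufa8 had 64.6 and 46.3 CPM (0.48) and Ndufs5 75.3 and 55.5 CPM (0.44). The mitochondrial genes at least 20% lower (background 7.46%) were mt-Atp8, at 62.9 and 79.8 CPM, and mt-Nd6, at 31.3 and 48.9 CPM with a ratio of -0.65 (-1.02 to -0.28). mt-Nd6 was also past 1.5-fold, where 2.12% of all genes were lower. The assembly factor Ndufaf5, with 13.1 and 18.5 CPM, had an interval that included 0.

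By complex, the mitochondrial genes of complex III, that is mt-Cytb alone, had log2 ratios of 0.113 in hepatoma, 0.042 in CD8 T, 0.060 in CD4 T and 0.019 in other T cells. Those of complex I were at -0.022, -0.071, -0.085 and -0.079 in the same order. Complex IV was at -0.041, -0.002, 0.041 and 0.001, and complex V at -0.026, 0.003, 0.034 and -0.015. Of these, only complexes III and IV in hepatoma cells and complexes I and III in CD8 T cells kept their direction under every alternative processing run. All the others, including every value in CD4 T and other T cells, took both signs, so no direction is read from them.

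Across hepatoma cells and the 3 T cell classes, 80 nuclear members had at least 100 UMIs in each. Of these, 14 (17.5%) were higher with intervals excluding 0 in all 4, and the background by the same rule was 4.06% of 5891 genes. Such a call is easier to reach for a gene with many UMIs, and the background was not matched for UMI number. None was lower in all 4 (background 3.72%). The 14 were Ndufb5, Ndufb8, Ndufb9, Ndufb10 and Ndufb11 of the complex I membrane arm, Cox4i1, Cox5a, Cox5b, Cox6b1 and Cox8a of complex IV, and Atp5c1, Atp5f1, Atp5g2 and Atp5j of ATP synthase. Complexes II and III and the assembly factors gave none, but only 4, 8 and 2 of their genes were among the 80. Cox5b had 353, 338, 271 and 241 CPM in CD147-LYTACs hepatoma, CD8 T, CD4 T and other T cells, against 326, 271, 210 and 206 CPM in the control cells. Among the 13 mitochondrial genes mt-Nd2 was lower in all 4 and none was higher. The total of the mitochondrial complex I genes, to which mt-Nd2 belongs, took both signs under other processing in hepatoma, CD4 T and other T cells. No shared direction is therefore read from mt-Nd2. These 4 cell types come from the same 2 libraries and are not independent of each other.

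**Figure D3:**
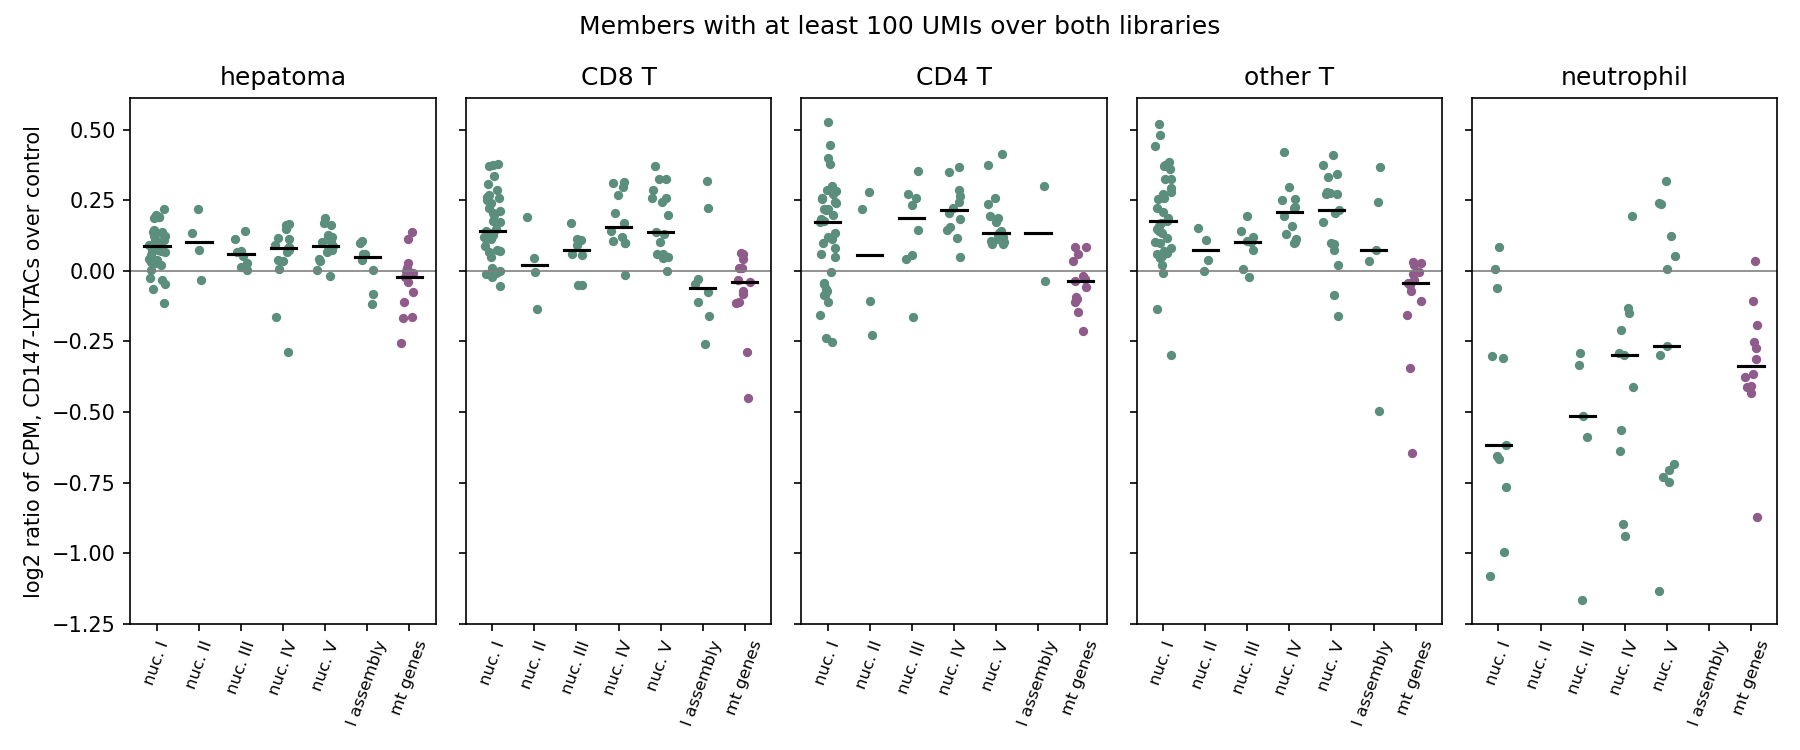
Log2 ratio of CD147-LYTACs over control CPM (y axis) of each member with at least 100 UMIs over both libraries, by complex (x axis; nuc., nuclear; mt genes, the mitochondrial set) in 5 cell types. Points are genes and black lines medians. The nuclear medians of complexes I, III, IV and V lie above 0 in hepatoma and T cells and below 0 in neutrophils. Those of complex II also lie above 0 in hepatoma and T cells, and no complex II gene is shown in neutrophils.

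In neutrophils both sets were lower in the CD147-LYTACs library. The assembly factors together went the other way, with a log2 ratio between 0.131 and 1.076 across the processing alternatives. The nuclear ratios of complexes I to V were all negative there. The assembly factors had 192 UMIs in CD147-LYTACs and 19 in control neutrophils, 1.69% and 0.985% of the nuclear set with overlapping intervals. Only 40 nuclear members had at least 100 UMIs, and none of the assembly factors or complex II genes did. Of the 40, 17 were at least 20% lower (background 19.2%) and none 25% higher (background 9.56%). The same 17 were those lower by interval alone (background 21.0%). At 1.5-fold 15 were lower (background 13.4%) and none higher (background 6.07%). Uqcrb, a small subunit of complex III, had 23.8 CPM in CD147-LYTACs and 53.4 CPM in control neutrophils, a log2 ratio of -1.17 (-1.82 to -0.46) from 86 and 25 UMIs. Atp5g2 had 26.3 and 57.7 CPM (-1.13), and Ndufb11 23.2 and 49.1 CPM (-1.08). Cox4i1 had 176 and 261 CPM (-0.56), and Cox6b1, which bridges complex IV dimers, 71.4 and 111 CPM (-0.64).

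Besides Uqcrb, Atp5g2, Ndufb11 and Cox6b1, the nuclear members past 1.5-fold in neutrophils were Atp5d, Atp5e, Atp5h, Atp5mpl, Cox6a1, Cox7b, Ndufa2, Ndufa6, Ndufa7, Ndufb1-ps and Uqcrq. Cox4i1 did not reach 1.5-fold. The 3 highest, Atp5a1 (55.9 and 44.9 CPM), Atp5md (109 and 91.9 CPM) and Atp5f1 (57.8 and 49.1 CPM), had intervals that included 0. Of the mitochondrial genes, mt-Co1 (1986 and 2559 CPM), mt-Co2 (1478 and 1967), mt-Co3 (2043 and 2709), mt-Atp6 (1624 and 2189) and mt-Atp8 (32.7 and 59.8) were at least 20% lower, and mt-Atp8 also 1.5-fold. The Sdh genes rested on 5 to 14 control UMIs each, too few to read a ratio.

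The control side of this comparison is 139 neutrophils with 468149 UMIs, against 1131 neutrophils with 3614495 UMIs in the CD147-LYTACs library. Other lists differed between these groups. The 9 neutrophil markers summed to 41940 CPM in CD147-LYTACs and 58460 CPM in control neutrophils, and 1 of them, S100a8, held 13710 and 20720 CPM. Hepatoma markers summed to 129 and 179 CPM, and 3 and 5 of the 11 were at 0. Monocyte markers, whose genes were no bar to the neutrophil gate, summed to 556 and 1134 CPM, and in control Vcan and F13a1 were at 0. Their part in the lower respiratory chain ratios was not tested. Fewer transcripts of a gene per cell and a different mix of neutrophil states cannot be told apart in these sums.

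Most single members were lowest in neutrophils as well. Against CD8 T cells, with a 1.5-fold difference required in both libraries, neutrophils had 79 of 86 nuclear members lower and none higher (background 50.5% lower and 11.1% higher). Their median log2 ratio was -2.40 in the CD147-LYTACs library and -1.87 in the control library, against -1.70 and -1.14 for all genes. Against macrophages, which are also myeloid, 44 of 45 were lower (background 39.0%), with medians of -2.43 and -1.81 against -0.41 and -0.38 for all genes. Macrophages differed little from CD8 T cells, with 3 of 86 higher (background 14.1%) and 6 lower (background 35.9%). CD4 T cells had no member past that fold against CD8 T cells, where 5.64% of all genes were higher and 3.56% lower.

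Hepatoma cells had 30 of 87 nuclear members at least 1.5-fold higher than CD8 T cells (background 34.7%) and 4 lower (background 31.9%), so the share of higher members was at the background and that of lower members under it. The 4 lower were Ndufa1, Ndufaf7, Ndufb1-ps and Uqcrh. Members were ranked by their log2 difference between the highest and the lowest of the 5 compared types, taking the smaller of both libraries' differences, and only those with at least 100 UMIs in the highest type were ranked. By this measure Ndufa4, a subunit of complex IV once counted with complex I, came first. It had 668 CPM in CD147-LYTACs and 616 CPM in control hepatoma cells, 166 and 135 CPM in CD8 T cells, 202 and 171 CPM in CD4 T cells, 121 and 79.9 CPM in macrophages, and 23.0 and 25.6 CPM in neutrophils. Between hepatoma cells and neutrophils that is a log2 difference of 4.86 in the CD147-LYTACs library and 4.59 in the control library. Within a single library others were wider, Ndufaf4 (5.50) and Ndufa5 (5.35) in CD147-LYTACs and Ndufb5 (4.73) in control, on 4, 8 and 3 UMIs in neutrophils. Ndufab1, the mitochondrial acyl carrier protein, followed with 207 and 195 CPM in hepatoma cells and 11.1 and 8.54 CPM in neutrophils. Uqcr11, a small complex III subunit, had 232 and 228 CPM in hepatoma cells and 15.5 and 12.8 CPM in neutrophils. Ndufa11 and Ndufa8 completed the first 5, and their control neutrophil values rest on 1 and 4 UMIs. Hepatoma markers were also seen in neutrophils, Krt8 at 42.9 and 42.7 CPM and Krt18 at 28.5 and 38.5 CPM. In hepatoma cells Krt8 had 1798 and 1721 CPM and Krt18 2826 and 2469 CPM. How much of the low neutrophil values was carried over from hepatoma cells was not tested.

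The make-up of the nuclear set by complex differed less than its level. Complex IV took 32.1% of the nuclear set's UMIs in hepatoma cells of both libraries, 29.2% and 28.6% in CD8 T cells, and 34.5% and 33.9% in neutrophils. Complex V took 27.7% and 27.4% in hepatoma cells and 31.6% and 31.1% in CD8 T cells. Complex II took 1.33% in hepatoma cells of both libraries and 1.67% and 1.83% in CD8 T cells.

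The mitochondrial set was put together differently in hepatoma cells than in immune cells, in both libraries alike. mt-Nd1 took 7.57% of the set in CD147-LYTACs and 7.46% in control hepatoma cells, but 4.60% and 4.69% in CD8 T cells and 4.67% and 3.91% in neutrophils. mt-Nd2 took 6.60% and 6.84% in hepatoma cells and 4.50% and 4.83% in CD8 T cells. mt-Co1 was the other way round, with 15.6% and 16.6% in hepatoma cells, 20.2% and 21.1% in CD8 T cells and 23.8% and 24.8% in macrophages. mt-Atp6 took 16.0% in hepatoma cells of both libraries and 20.0% and 19.7% in CD8 T cells. mt-Nd6 was the scarcest, with 0.0484% and 0.0534% in hepatoma cells and 0.113% and 0.137% in CD8 T cells. How evenly transcripts of different genes were captured is not known, so shares of different genes are capture counts and not relative molecule numbers.

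**Figure D4:**
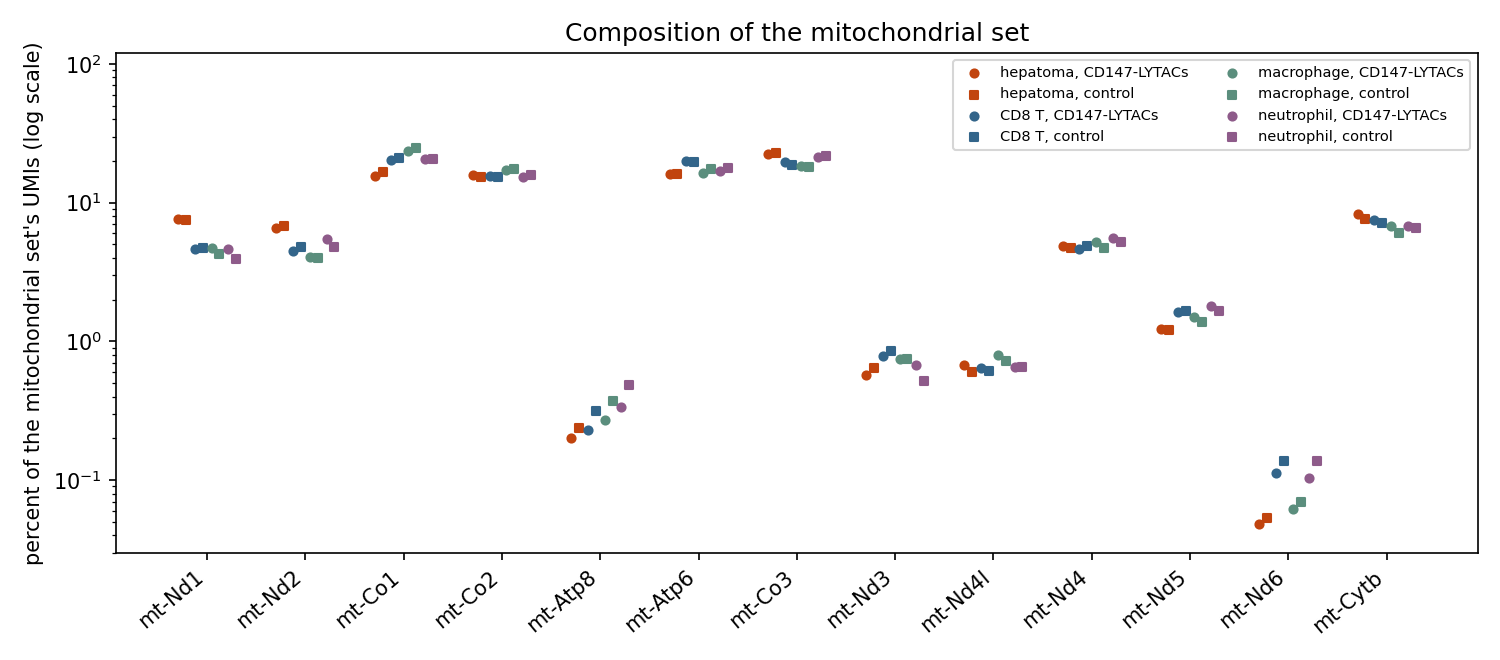
Share of the mitochondrial set's UMIs (percent, log scale, y axis) taken by each of its 13 genes (x axis) in hepatoma cells, CD8 T cells, macrophages and neutrophils. Circles are the CD147-LYTACs library and squares the control library. Hepatoma cells stand above the immune cells for mt-Nd1 and below them for mt-Co1 in both libraries.

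Several subunits have tissue isoforms, and 1 of them was abundant in a single gated cell type. Cox6a2 (chr7:128205435-128206387, minus strand, GRCm38), known as the heart and skeletal muscle isoform of complex IV subunit VIa, was abundant in plasmacytoid dendritic cells, which produce type I interferon. It was seen in 14 of 14 such cells in the CD147-LYTACs library and 13 of 13 in the control library. It reached 906 CPM from 111 UMIs and 865 CPM from 97 UMIs, and at most 16 and 22 UMIs came from any 1 cell. The broadly expressed isoform Cox6a1 had 212 and 152 CPM there, so Cox6a2 made up 81.0% (73.4 to 87.2) and 85.1% (77.2 to 91.1) of Cox6a UMIs.

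Elsewhere Cox6a2 was at or near 0. It made up 0.281% and 0.332% of Cox6a UMIs in hepatoma cells, with a UMI in 2.40% and 2.84% of these deeply sequenced cells, and 0.0600% and 0.0526% in CD8 T cells, where 2 cells of each library had a UMI. None of the 1131 CD147-LYTACs neutrophils had a UMI, which allows up to 0.265% of cells with a UMI, and none of the 139 control neutrophils, which allows up to 2.16%. At about 2791 UMIs per cell these limits apply to detection, not to expression. Conventional dendritic cells, the nearest type by lineage, had 0 of 54 and 1 of 81 cells with a UMI, at a median depth of 10880 and 13100 UMIs against 9121 and 9447 in plasmacytoid dendritic cells. Cox6a2 was not among the genes used to gate any type.

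**Figure D5:**
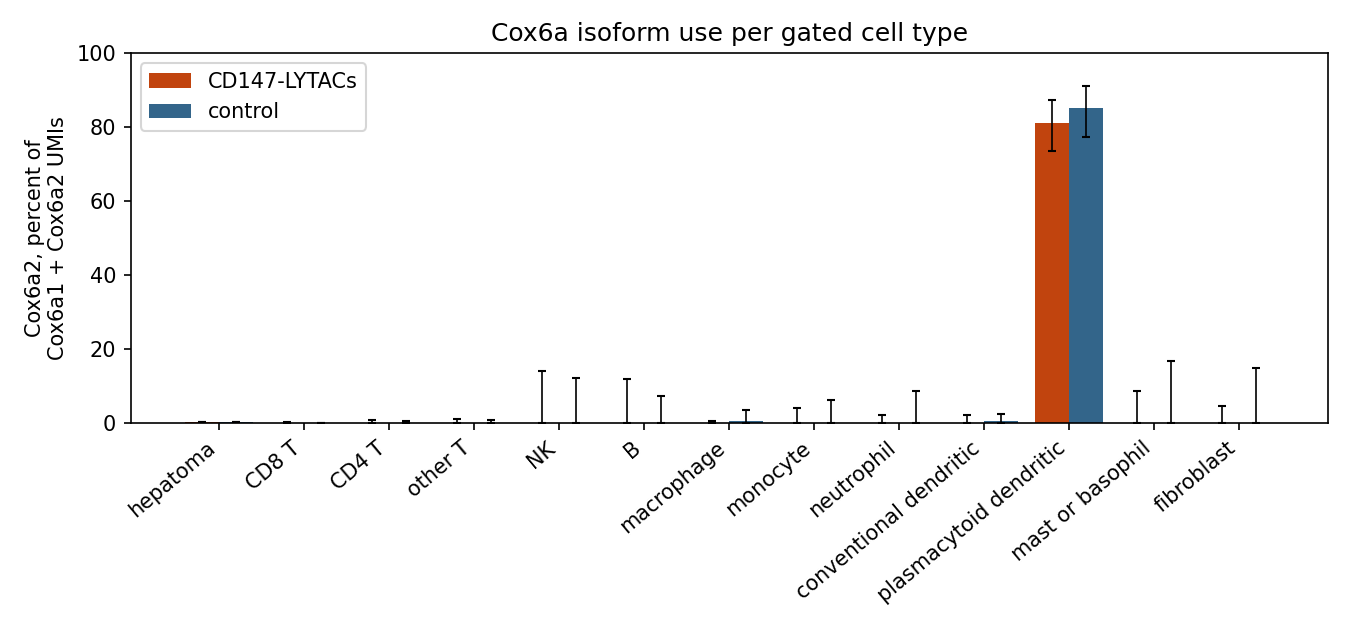
Cox6a2 as percent of the UMIs of Cox6a1 and Cox6a2 together (y axis, bars) in each gated cell type (x axis), CD147-LYTACs left of control, with exact binomial 95% intervals for counting error. Plasmacytoid dendritic cells stand at 81.0% and 85.1%, and the bars of the other types are at or near 0.

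Ndufa4l2, a relative of Ndufa4 known for its induction by low oxygen, was highest in fibroblasts. It had 20.7 CPM (10.3 to 37.0) in CD147-LYTACs fibroblasts, from 11 UMIs in 4 of 34 cells, and 45.9 CPM (23.7 to 80.1) in control fibroblasts, from 12 UMIs in 4 of 16 cells. The most in any 1 cell were 6 and 4 UMIs, and the interval of the ratio included no difference. In each library of hepatoma cells it had 2 UMIs, and it had none in CD4 T, other T, NK, B and conventional dendritic cells of either library. The 4 UMIs in control macrophages came from 1 cell.

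The remaining restricted isoforms were scarce. Cox4i2, an isoform known from lung and from oxygen sensing, had 2.39 CPM in CD147-LYTACs macrophages (5 UMIs in 2 of 285 cells) and 17.1 CPM in control macrophages (15 UMIs in 5 of 95 cells). In each group 1 cell carried many of these, with 3 and 7 UMIs, so the difference rests on few cells. Cox7a1 had 3.34 CPM in CD147-LYTACs and 4.07 CPM in control hepatoma cells and under 1% of Cox7a UMIs in both. Cox6b2, the testis isoform, had 2.13 and 1.67 CPM in CD8 T cells and 0.0104 and 0.0881 CPM in hepatoma cells. In mast cells or basophils Cox6b2 had 3 UMIs in 3 of 32 CD147-LYTACs cells and 4 UMIs in 2 of 20 control cells. Cox7a1 had 2 UMIs in each library of these cells. Cox7b2 had 14 UMIs in CD147-LYTACs and 3 in control hepatoma cells. Cox8c had none in hepatoma cells, CD8 T cells or neutrophils of either library. Cox8b had none in CD147-LYTACs and 2 in control hepatoma cells.

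The balance of the Cox7a family differed between cell types. Of the UMIs of Cox7a1, Cox7a2 and Cox7a2l, the last, which is known to tether complexes III and IV, took 57.7% in CD147-LYTACs and 57.3% in control hepatoma cells. In CD8 T cells it took 53.6% and 54.3%, in macrophages 38.9% and 41.9%, and in neutrophils 29.3% and 23.9%. Cox7a2 took most of the remainder, with 70.5% and 76.1% in neutrophils.

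Lists of related genes outside the sets had median log2 ratios between -0.046 and 0.109 in hepatoma cells, where the nuclear members' own median was 0.078. Of 9 regulators of mitochondrial biogenesis, none was at least 25% higher or 20% lower in hepatoma cells (background 2.72% higher and 5.65% lower) or CD8 T cells (7.73% and 5.19%), and the median log2 ratio was -0.046 and -0.139. Nrf1, the gene of the factor named above, had 52.3 CPM in CD147-LYTACs and 58.9 CPM in control hepatoma cells (-0.17, -0.23 to -0.12), and Myc 62.5 and 56.6 CPM (0.14). In other T cells 2 of 7 regulators were at least 20% lower (background 7.46%) and none 25% higher (background 6.27%), Myc among them at 13.1 and 20.1 CPM. Of 41 assembly factors and carriers outside the rule found in the files, 40 were tested in hepatoma cells, with 1 at least 25% higher (background 2.72%) and none 20% lower (background 5.65%). The gene was Sco2, a copper carrier for complex IV, at 21.1 and 16.7 CPM (0.34), while its relative Sco1 was at 11.8 and 13.9 CPM (-0.24). In other T cells 3 of 26 were higher (background 6.27%) and none lower (background 7.46%) by these thresholds, led by Cox19 (27.2 and 15.6 CPM, 0.80) and the heme synthesis gene Cox10 (32.6 and 20.6 CPM, 0.66). In neutrophils 1 of 8 was higher (background 9.56%), Higd1a, a complex IV interacting protein, at 77.7 and 29.9 CPM (1.38). The 2 lower (background 19.2%) were Atpif1, the inhibitor of ATP synthase, at 24.9 and 47.0 CPM, and Cycs, cytochrome c, at 84.1 and 118 CPM.

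Import and carrier genes had the highest list median in hepatoma cells (0.109 over 14 genes) and CD8 T cells (0.161 over 15). Slc25a5, an ADP and ATP exchanger, had 289 CPM in CD147-LYTACs and 236 CPM in control CD8 T cells (0.29), and the inner membrane translocase gene Timm50 had 53.4 and 45.8 CPM in hepatoma cells (0.22). Genes of mitochondrial DNA and RNA upkeep had medians of -0.003 and -0.007, with Hsd17b10, a subunit of mitochondrial RNase P, the 1 of 26 higher in CD8 T cells (background 7.73%) at 46.6 and 33.4 CPM (0.48) and Mterf1a (6.62 and 8.64 CPM) and Mterf3 (15.7 and 20.0 CPM) lower (background 5.19%). Of 13 citric acid cycle genes none passed either threshold in hepatoma cells (background 2.72% higher and 5.65% lower) or CD8 T cells (7.73% and 5.19%), and the medians were 0.029 and -0.013. In neutrophils 4 of the 13 had enough UMIs, with a median of -0.583, and 2 of them, Dlst (43.4 and 91.9 CPM) and Cs (84.7 and 130 CPM), were at least 20% lower (background 19.2%). Such counts over a few genes are a description of those genes.

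Within a library, hepatoma cells varied more in the mitochondrial than in the nuclear share. The middle 90% of CD147-LYTACs hepatoma cells ran between 1.24% and 2.49% for the nuclear set and between 1.71% and 9.13% for the mitochondrial set, and those of control between 1.17% and 2.39% and between 1.35% and 8.74%. The medians were 1.86% and 1.77% for the nuclear set. Across these cells Spearman's rho of both shares was -0.383 in CD147-LYTACs and -0.377 in control. This is a description only: cells share their library, both shares have the same total, and depth ran with the nuclear share (rho 0.308 and 0.231) and against the mitochondrial share (-0.323 and -0.233). In CD8 T cells rho was -0.037 and -0.061.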

How the data were processed

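RNA of single cells from 2 libraries was measured on the 10x Chromium platform. The authors deposited whole-number UMI counts for each gene in each barcode, with no scaling by gene length or depth. The submitters' processing notes name Cell Ranger 3.0.2 and mm10, while the file headers name Cell Ranger 7.1.0. Which annotation was counted against is not given in the sources.

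Barcodes with at least 500 UMIs, 300 genes and at most 15% mitochondrial UMIs were kept, 8176 of 9219 in the CD147-LYTACs library and 7091 of 8150 in control. The genes counted for that cap are the 13 of the mitochondrial set. Scrublet scores were computed with scanpy 1.11.5. Its automatic threshold marked 101 and 2 doublets and was not used. Instead the highest scores were removed at 0.8% per 1000 barcodes, 535 and 402 cells. Cells were gated on raw UMIs of marker lists per 10000 UMIs: hepatoma 10 with 3 markers seen, T cell 3 with 2, neutrophil 30 with 3, macrophage 3 with 3, B cell 3 with 2, mast cell or basophil 10 with 2, fibroblast 30 with 3 and plasmacytoid dendritic cell 3 with 3. Cells that passed none of these could pass as monocyte (10 with 3), conventional dendritic cell (5 with 3) or NK cell (3 with 2, without Cd3d, Cd3e, Cd3g and Trac). T cells were divided by Cd8a, Cd8b1 and Cd4. These thresholds were set on marker distributions after the files were seen.

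UMIs were summed per cell type and library and given as percent or as UMIs per 1000000 (CPM). Ratios of CD147-LYTACs over control have exact conditional binomial 95% intervals, shares have Clopper-Pearson intervals and CPM exact Poisson intervals. With 1 library per group no test was made, and intervals and the limits for a count of 0 (3 counts) cover counting error only. A gene was compared where it had at least 100 UMIs over both libraries. "Higher" and "lower" for a gene mean an interval of the ratio that excludes no difference, with a ratio of at least 25% higher (20% lower) or 1.5-fold where stated. Background is the percent of all genes compared that met the same rule. It was not matched for UMI number, on which the width of an interval depends. The calculation was tested on simulated data.

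Positions come from GENCODE M21 on GRCm38, where all 107 members matched by ID, and promoters from RefSeq. Genes named were the 3 highest and 3 lowest members per cell type, the mitochondrial genes, Sdha to Sdhd, isoform families, members past 1.5-fold, the 5 members with the widest spread over cell types and the 2 extremes each way of each pathway list. A result that this rule would name is not reported here. Others were chosen after their values were seen. So were the comparisons between cell types, the motif search, the 3 bins by depth, the count over 4 cell types, the ribosomal share and the cells with isoform UMIs. The spread ranking was limited to members with 100 UMIs in the highest cell type after a first ranking, led by genes near 0, had been seen. The members and lists were chosen with earlier results of these data known. Alternatives were other mitochondrial caps, gates, doublet treatment, depth and count minimums, scaling, denominator and weighting of cells. Software was Python 3.11.15, numpy 2.4.6, scipy 1.17.1, pandas 2.3.3 and matplotlib 3.10.9.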

Additional observations from a re-analysis of the deposited data

How the results depend on the processing

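The nuclear set kept its direction in all 5 cell types under the 10 alternatives that bear on it, with log2 ratios between 0.073 and 0.109 in hepatoma cells and between 0.139 and 0.170 in CD8 T cells. With mitochondrial UMIs left out of the denominator the log2 ratios of the sets stayed within their counting intervals and the counts of members within 1.5-fold, 20 values in all, while 16 of 75 other values, all of them percentages of UMIs, moved outside their intervals. The mitochondrial set did not keep its direction in hepatoma cells or any T cell class, and the cause was not tested. With a cap of 10% its log2 ratio was -0.034 in hepatoma, -0.002 in CD8 T, -0.026 in CD4 T, 0.010 in other T cells and -0.238 in neutrophils, and mitochondrial complex III in CD4 T cells was at -0.001. With 25% the set was at -0.010, 0.002, 0.125, 0.013 and -1.026 in the same order, and complex I in CD4 T cells at 0.072. With no cap it was at 0.015 in hepatoma, -0.056 in CD4 T, 0.090 in other T cells and -1.145 in neutrophils. Mitochondrial complex I was then at 0.017 in hepatoma and 0.038 in other T cells, complex V at 0.014 in hepatoma and complex IV at -0.040 in CD4 T cells. With any of these 3 caps 1 member was at least 20% lower in other T cells, where 2 were as reported.

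As a mean over cells, which has no interval so that fold alone was counted, the nuclear set in hepatoma cells was at 0.073. The mitochondrial set was at 0.017 in hepatoma, 0.021 in CD8 T, -0.066 in other T cells and -0.457 in neutrophils, with complexes I and V both at 0.018 in hepatoma cells. Members at least 25% higher or 20% lower were then 1 higher and 2 lower in hepatoma, 2 lower in CD8 T, 15 higher and 1 lower in CD4 T, 5 lower in other T cells, and 2 higher and 36 lower in neutrophils.

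Centred on the median of all genes, the nuclear set was at 0.109 in hepatoma, 0.170 in CD8 T, 0.209 in CD4 T and 0.209 in other T cells and -0.299 in neutrophils, and the mitochondrial set at 0.005, 0.017, 0.058, 0.016 and -0.275. Mitochondrial complexes I and V in hepatoma cells were at 0.005 and 0.002, 12 members were higher in CD8 T cells and 1 lower in other T cells.

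Without removal by doublet score the mitochondrial set was at -0.041 in CD8 T, 0.003 in CD4 T, 0.059 in other T cells and -0.276 in neutrophils, and complex I at 0.018 in other T cells. The nuclear set was at 0.196 in CD4 T, 0.157 in other T cells and -0.304 in neutrophils, with 2 members lower in CD8 T cells and 6 higher and 1 lower in other T cells. The stricter gate gave a mitochondrial ratio of -0.308 in neutrophils and 1 member lower in other T cells. The looser gate gave -0.007 in CD4 T, -0.054 in other T cells and -0.279 in neutrophils. A minimum of 2000 UMIs per cell gave -0.020 in CD8 T cells and 0.001 in other T cells, with 1 member lower there. With no low-count filter 1 member was higher and 1 lower in hepatoma cells, and the median of all genes was at 0.021 in CD4 T and 0.009 in other T cells. With at least 500 UMIs 0 members were lower in other T cells and 5 in neutrophils, since fewer were compared.

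No paired analysis was possible because each group was 1 library, and leaving out a library would leave no comparison. With so few control neutrophils, their single-gene ratios rest on few UMIs. In T cells and neutrophils a ratio of this size is within reach of counting error for scarce genes, so the set totals are the firmer values.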
